A study of Mus musculus with 18 samples.

Results

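The 8 genes described here are Bcl6, Rgs13, Mybl1, S1pr2, Fas, Cd69, Cd86 and Myc, which are known from germinal centre and activated B cells. They were taken as the rows carrying these gene symbols in both deposited count tables, and each symbol matched 1 row in each table, so 8 of 25965 rows were used. RNA was sequenced from CD45.2+ B220+ Mac1- cells sorted from femur marrow of C57BL/6 mice aged 12 to 16 months. Heterozygous animals were Smchd1[del/+] Vav.Cre[T/+] and homozygous deleted animals, called del/del here, were Smchd1[del/del] Vav.Cre[T/+]. Females gave 5 libraries of each genotype and males gave 4 of each. Every library therefore carried Cre and at least 1 deleted allele, and no library with 2 intact Smchd1 alleles was used. The Vav promoter drives Cre in blood-forming cells in general, so the deletion was not limited to B cells or to a stage of their development. Each library had its own animal number in the labels. The mice were not described as immunised, and the cells came from marrow, not from a germinal centre.

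Germinal centres form in spleen and lymph nodes when activated B cells multiply, mutate their antibody genes and compete for help from T cells. BCL6 is the transcriptional repressor that sets up and holds this state. Cells that have met antigen first switch on early activation genes such as Cd69 and Myc and the costimulatory ligand CD86, and germinal centre cells later carry the death receptor FAS and the confining receptor S1PR2. SMCHD1 is a chromatin protein that keeps genes silent on the inactive X chromosome and in several autosomal clusters. In marrow, B220+ cells range from dividing precursors to mature B cells that return from the blood, and plasmacytoid dendritic cells also carry B220.

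None of the 8 genes passed the test between genotypes after adjustment over all genes, in either sex or in both sexes together. The largest difference was that of Rgs13, which stood 1.67-fold higher in del/del than in heterozygous females and 1.36-fold higher in males. Cd69 stood 1.37-fold higher in del/del males and 1.06-fold higher in del/del females. Between the sexes, 3 of the 8 genes passed, a share near the 41.9% of all genes that did: Cd86 was higher in males, and Mybl1 and Rgs13 were lower. In bulk libraries such as these, fewer cells of a type and less RNA per cell cannot be told apart. Bcl6 itself varied by 3.24-fold between the lowest and the highest library, and by 2.03-fold to 2.36-fold within each group.

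As a check of the labels, Smchd1 itself fell from 247 ± 17.7 to 141 ± 17.8 CPM (depth-scaled counts; SD, n = 5 and 5) in females and from 298 ± 23 to 178 ± 16.5 CPM (n = 4 and 4) in males. Its heterozygous and del/del libraries did not overlap in either sex. Library totals were 9788112 to 29405395 counts. All 8 genes of a B identity list (Pax5, Ebf1 and the like) were detected in these libraries, with summed levels of 6800 to 8650 CPM. The 15 genes of a plasmacytoid dendritic cell list were detected too, at 1280 to 1960 CPM in heterozygous females, 1380 to 2420 CPM in del/del females, 1200 to 1360 CPM in heterozygous males and 1200 to 1470 CPM in del/del males.

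The windows shown here are the 250 bases before annotated starts of Bcl6 and Fas, which varied together from library to library. BCL6 protein is known to repress its own gene, and MYC binds E-boxes. Capitals mark matches to TTCCNNGAA, a core of the known BCL6 motif, and to CACGTG, the E-box, searched on both strands; no match of one overlapped the other. Sequences are from RefSeq, GRCm38.p6, 5′ to 3′ on the strand of the gene.
Bcl6, upstream start, chr16:23988853-23989102, minus strand: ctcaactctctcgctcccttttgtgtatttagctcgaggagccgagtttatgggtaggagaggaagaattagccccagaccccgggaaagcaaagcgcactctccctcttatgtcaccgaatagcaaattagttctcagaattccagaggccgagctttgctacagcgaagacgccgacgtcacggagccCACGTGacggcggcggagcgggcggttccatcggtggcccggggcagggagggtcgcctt
Bcl6, internal start, chr16:23981284-23981533, minus strand: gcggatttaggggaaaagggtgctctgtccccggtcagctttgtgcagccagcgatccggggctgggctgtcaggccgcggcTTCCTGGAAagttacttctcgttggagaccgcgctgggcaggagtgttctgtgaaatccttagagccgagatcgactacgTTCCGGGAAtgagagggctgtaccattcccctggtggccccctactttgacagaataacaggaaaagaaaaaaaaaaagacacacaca
Fas, chr19:34290409-34290658, plus strand: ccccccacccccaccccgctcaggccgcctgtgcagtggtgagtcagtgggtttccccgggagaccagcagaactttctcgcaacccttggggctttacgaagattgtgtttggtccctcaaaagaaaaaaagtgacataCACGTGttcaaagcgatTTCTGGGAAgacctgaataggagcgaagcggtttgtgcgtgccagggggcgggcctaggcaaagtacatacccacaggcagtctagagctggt

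The upstream Bcl6 window held 1 E-box and no BCL6 match, and the internal window, which lies wholly in a GENCODE M21 intron of Bcl6, held 2 BCL6 matches and no E-box. The Fas window held 1 of each. Windows were also given for Rgs13 and S1pr2, which held neither motif, so 4 of the 8 genes had an entry; Mybl1, Cd69, Cd86 and Myc are named only. Among 32851 such windows of all genes, 4.1% held the BCL6 motif and 6% held the E-box. A match describes these letters, and nothing was measured here on binding.

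**Figure D1:**
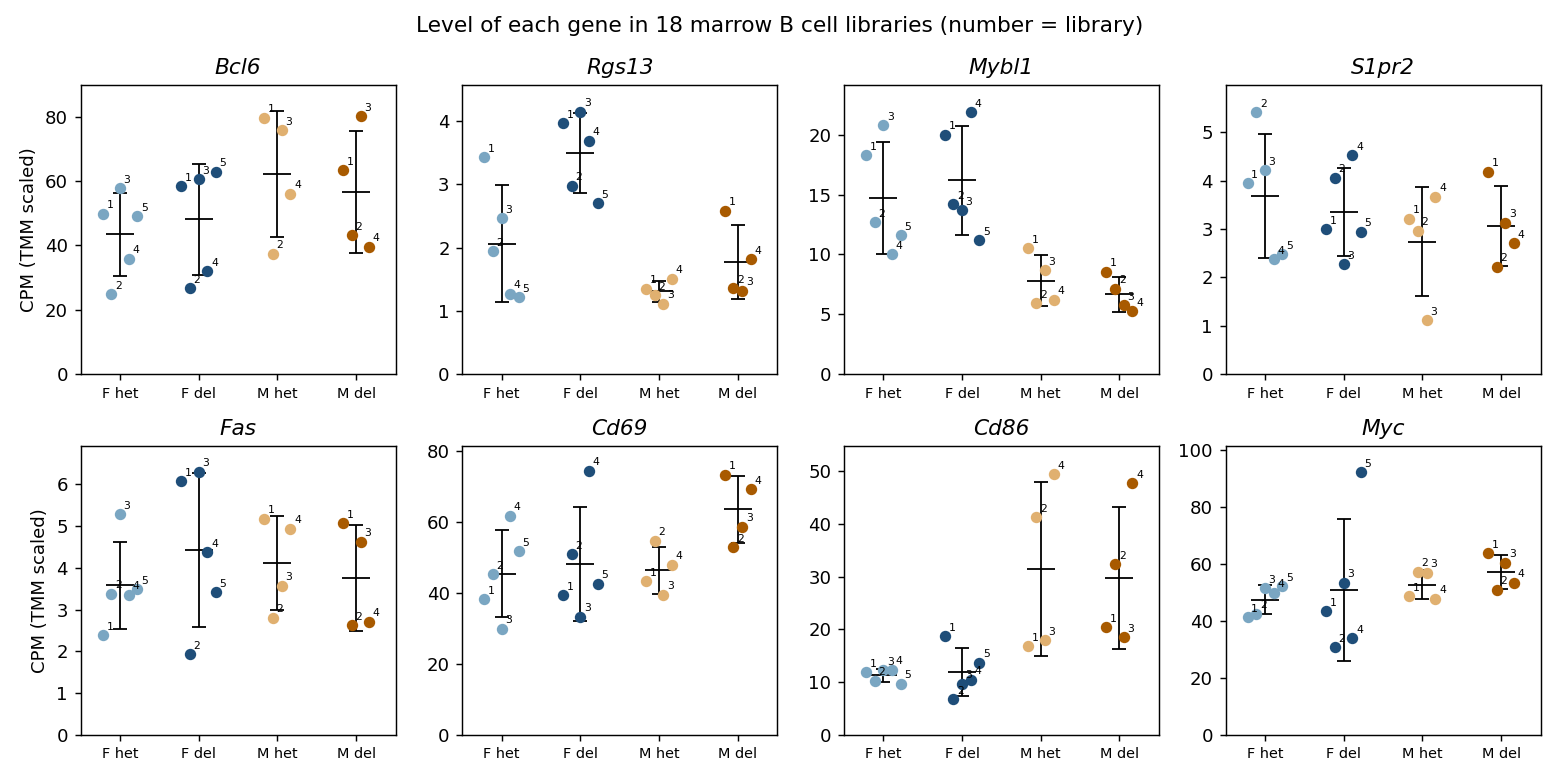
Level of each of the 8 genes in every library, in CPM on linear axes that start at 0. Points are libraries with their number, horizontal lines are group means and bars are ± SD (n = 5, 5, 4 and 4). F and M are female and male, het is heterozygous and del is del/del. The Cd86 points of heterozygous males lie between 16.8 and 49.5 CPM, all above the heterozygous females.

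The transcription factors are described before the surface and signalling molecules. Bcl6 (ENSMUSG00000022508, mm10 chromosome 16, 23965052 to 23988852) was read 293 to 1820 times per library. In females its level was 49.8, 24.8, 57.7, 35.9 and 49.0 CPM in heterozygous libraries 1 to 5 and 58.3, 26.7, 60.6, 32.0 and 62.9 CPM in del/del libraries 1 to 5. Both female groups had low libraries, numbers 2 and 4, and their ranges overlapped. Heterozygous males 1 to 4 stood at 79.6, 37.4, 75.8 and 56.0 CPM and del/del males 1 to 4 at 63.4, 43.2, 80.2 and 39.6 CPM. These ranges overlapped almost fully. The log2 fold change of del/del against heterozygous was 0.14 (SE 0.26) in females and -0.12 (SE 0.28) in males, and edgeR's quasi-likelihood test gave adjusted p = 0.975 and 1. Leaving out 1 library at a time gave 0.00 to 0.29 in females and -0.35 to 0.01 in males. Over both sexes the value was 0.00 with an interval of ± 2 SE from -0.42 to 0.42. Group means rose in the order heterozygous females, del/del females, del/del males and heterozygous males, and no neighbours in that order differed by more than their SD.

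Mybl1 (ENSMUSG00000025912, chromosome 1, 9667415 to 9700209) encodes A-MYB, a transcription factor of dividing germinal centre B cells and of sperm precursors. Heterozygous females 1 to 5 stood at 18.3, 12.7, 20.8, 10 and 11.6 CPM and del/del females 1 to 5 at 20.0, 14.2, 13.7, 21.9 and 11.2 CPM. Heterozygous males 1 to 4 stood at 10.5, 5.91, 8.66 and 6.22 CPM and del/del males 1 to 4 at 8.54, 7.15, 5.77 and 5.26 CPM. Genotype groups overlapped in both sexes, while 7 of 8 male libraries lay below all 10 female libraries. The genotype difference was 0.13 (SE 0.23) in females and -0.21 (SE 0.22) in males on the log2 scale, and 0.00 to 0.29 and -0.35 to -0.05 when 1 library was left out. Males against females it was -1.11 (SE 0.18; adjusted p = 9.9e-05).

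Myc (ENSMUSG00000022346, chromosome 15, 61985391 to 61990374), which drives cell growth after activation, had the highest level per kilobase of merged exon of the 8 genes. Among females, heterozygous libraries held 41.3, 42.5, 51.4, 49.9 and 52.1 CPM and del/del libraries 43.3, 30.8, 53.4, 33.8 and 92.1 CPM. Library 5 of the del/del females held the highest Myc value of all, and library 2 of the same group the lowest. Among males, heterozygous libraries held 48.7, 57.2, 56.9 and 47.8 CPM and del/del libraries 63.7, 50.9, 60.3 and 53.3 CPM, with 2 del/del libraries above all heterozygous ones. The log2 difference between genotypes was 0.09 (SE 0.25) in females and 0.12 (SE 0.10) in males. Without del/del female library 5, the female value was -0.24 (SE 0.15; edgeR adjusted p = 1). That library also had the highest mature B cell list level (14000 CPM against 6950 to 10600 CPM in the other females) and the lowest proliferation list level among females (3270 CPM against 4010 to 6400 CPM), and the part of these in its Myc value was not tested.

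S1pr2 (ENSMUSG00000043895, chromosome 9, 20965952 to 20976793) encodes the sphingosine 1-phosphate receptor that confines germinal centre B cells. It was the lowest of the 8 per kilobase of merged exon. It was read 19 to 125 times per library, for a counting error of 22.9% at the lowest and 8.94% at the highest count. Heterozygous females 1 to 5 stood at 3.95, 5.41, 4.22, 2.37 and 2.48 CPM and del/del females 1 to 5 at 2.99, 4.06, 2.27, 4.52 and 2.94 CPM. Heterozygous males 1 to 4 stood at 3.21, 2.96, 1.11 and 3.67 CPM and del/del males 1 to 4 at 4.18, 2.22, 3.13 and 2.71 CPM. All 4 groups overlapped each other. The genotype difference was -0.13 (SE 0.28) in females and 0.18 (SE 0.35) in males on the log2 scale. Single libraries set these signs: the female value was 0.04 without heterozygous library 2, and the male value was -0.10 without heterozygous library 3 and -0.01 without del/del library 1.

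Rgs13 (ENSMUSG00000051079, chromosome 1, 144138667 to 144177372) encodes a regulator that shortens G protein signalling from chemokine receptors in germinal centre B cells. Heterozygous females 1 to 5 stood at 3.43, 1.94, 2.46, 1.27 and 1.22 CPM and del/del females 1 to 5 at 3.97, 2.98, 4.15, 3.69 and 2.70 CPM. Of the del/del females, 3 lay above every heterozygous female, and the other 2 lay below heterozygous library 1. Heterozygous males 1 to 4 stood at 1.35, 1.25, 1.11 and 1.51 CPM and del/del males 1 to 4 at 2.58, 1.36, 1.32 and 1.82 CPM. Of these, 2 del/del males lay above every heterozygous male. The log2 fold change was 0.74 (SE 0.29) in females, with an unadjusted p under 0.05 and an edgeR adjusted p of 0.975. In males it was 0.45 (SE 0.28; adjusted p = 1), and 0.21 (SE 0.26) without del/del male library 1. Over both sexes it was 0.59 (SE 0.21), again with an unadjusted p under 0.05 and an edgeR adjusted p of 0.579. The female and male differences were not shown to differ (interaction -0.31, SE 0.43). In the authors' deposited table the female Rgs13 difference was 0.76 with an adjusted p of 0.976. The gene was read 13 to 108 times per library, so the counting error alone was 27.7% at the lowest and 9.62% at the highest count.

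Fas (ENSMUSG00000024778, chromosome 19, 34290659 to 34327770) encodes the death receptor by which T cells remove germinal centre B cells. Heterozygous females 1 to 5 stood at 2.39, 3.38, 5.29, 3.36 and 3.49 CPM and del/del females 1 to 5 at 6.08, 1.93, 6.30, 4.38 and 3.41 CPM. The del/del females held both the lowest and the highest Fas value of all libraries. Heterozygous males 1 to 4 stood at 5.18, 2.81, 3.57 and 4.94 CPM and del/del males 1 to 4 at 5.07, 2.62, 4.63 and 2.71 CPM. The male groups overlapped. The log2 difference was 0.29 (SE 0.31) in females and -0.11 (SE 0.29) in males. Leaving out 1 library at a time gave 0.12 (without del/del 3) to 0.49 (without del/del 2) in females and -0.29 (without del/del 1) to 0.03 (without del/del 2) in males.

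Cd69 (ENSMUSG00000030156, chromosome 6, 129267324 to 129275369) encodes an early activation antigen that holds cells in tissue by pulling the exit receptor S1PR1 from the surface. Levels in males were 43.2, 54.7, 39.5 and 47.9 CPM (heterozygous 1 to 4) and 73.3, 52.8, 58.6 and 69.2 CPM (del/del 1 to 4). Of the del/del males, 3 lay above every heterozygous male, and library 2 lay just below the highest of them. Heterozygous females stood at 38.2, 45.3, 29.9, 61.7 and 51.7 CPM and del/del females at 39.3, 50.9, 33.3, 74.4 and 42.5 CPM, which overlapped almost fully. The male log2 fold change was 0.46 (SE 0.13; ± 2 SE from 0.20 to 0.71), with an unadjusted p under 0.05 and an edgeR adjusted p of 0.772. The female value was 0.08 (SE 0.23; adjusted p = 0.976), and -0.12 without del/del library 4 or -0.04 without heterozygous library 3. The interaction of sex and genotype was 0.36 (SE 0.30; edgeR adjusted p = 1), so the sexes were not shown to differ. In the authors' deposited table the male Cd69 difference was 0.46 with an adjusted p of 0.896.

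Cd86 (ENSMUSG00000022901, chromosome 16, 36603869 to 36666081) encodes the ligand through which B cells and dendritic cells costimulate T cells. Heterozygous females 1 to 5 stood at 11.9, 10.3, 12.3, 12.4 and 9.67 CPM and del/del females 1 to 5 at 18.7, 6.79, 9.68, 10.5 and 13.7 CPM. Heterozygous males 1 to 4 stood at 16.8, 41.3, 18 and 49.5 CPM and del/del males 1 to 4 at 20.4, 32.4, 18.5 and 47.7 CPM. In both male groups, libraries 2 and 4 were high and libraries 1 and 3 were low. The genotype difference was 0.06 (SE 0.22) in females and -0.08 (SE 0.39) in males on the log2 scale. It was -0.17 in females without del/del library 1, and in males it ran from -0.40 without del/del library 4 to 0.21 without heterozygous library 4. Of all 8 genes, Cd86 had the widest range, 7.29-fold.

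**Figure D2:**
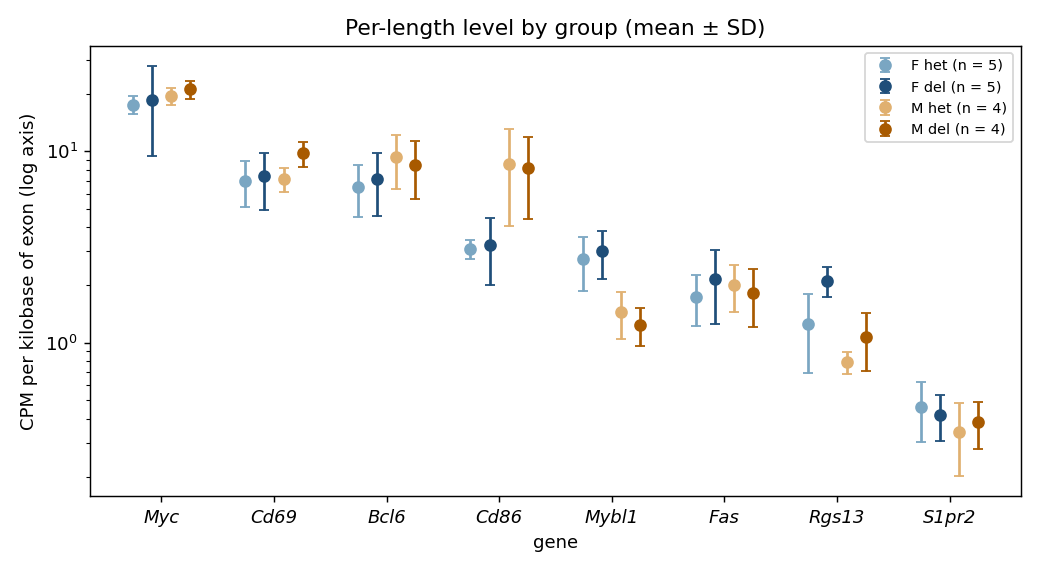
Mean CPM per kilobase of exon (log axis) of each gene in the 4 groups, with bars of ± SD over 5, 5, 4 and 4 libraries. Genes run from Myc, with a mean of 19 over all libraries, down to S1pr2 at 0.407, and for Cd86 and Mybl1 the female and male means lie further apart than their SDs.

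Levels were compared between genes per kilobase of merged exon. Over all 18 libraries Myc stood at 19 CPM per kilobase, Cd69 at 7.74, Bcl6 at 7.73 and Cd86 at 5.47. Mybl1 at 2.19, Fas at 1.93, Rgs13 at 1.35 and S1pr2 at 0.407 formed the lower part. The exon lengths are from GENCODE M21, where S1pr2 runs to position 20962361, beyond the end in the authors' table. The S1pr2 level per length therefore depends on which transcript end is right. Merged exons join all annotated transcripts, 2 for Bcl6 (6700 bases), 5 for Cd69 (6509 bases) and 8 for Myc (2717 bases). In CPM alone Bcl6 (51.8), Myc (51.6) and Cd69 (50.4) stood close together, so their order per length rests on these lengths. The order of the 4 group means was also set against the SD. For Mybl1 it ran from del/del males (6.68 CPM) through heterozygous males (7.81) and heterozygous females (14.7) to del/del females (16.2), and the step between the sexes alone was larger than the SD of both its neighbours. Rgs13 ran from heterozygous males (1.31) through del/del males (1.77) and heterozygous females (2.06) to del/del females (3.5), with the last step alone larger than both SDs. Cd86 ran from heterozygous females (11.3) and del/del females (11.9) to del/del males (29.8) and heterozygous males (31.4), with the step between the sexes larger than both SDs. Cd69 ran from heterozygous females (45.4) through heterozygous males (46.3) and del/del females (48.1) to del/del males (63.5), and no step was larger than both SDs. The same held for S1pr2, from heterozygous males to heterozygous females, for Fas, from heterozygous to del/del females, and for Myc, from heterozygous females to del/del males. Of the 8 genes, Bcl6 shared exon bases with another gene, 21 bases with Gm37419 on the opposite strand.

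**Figure D3:**
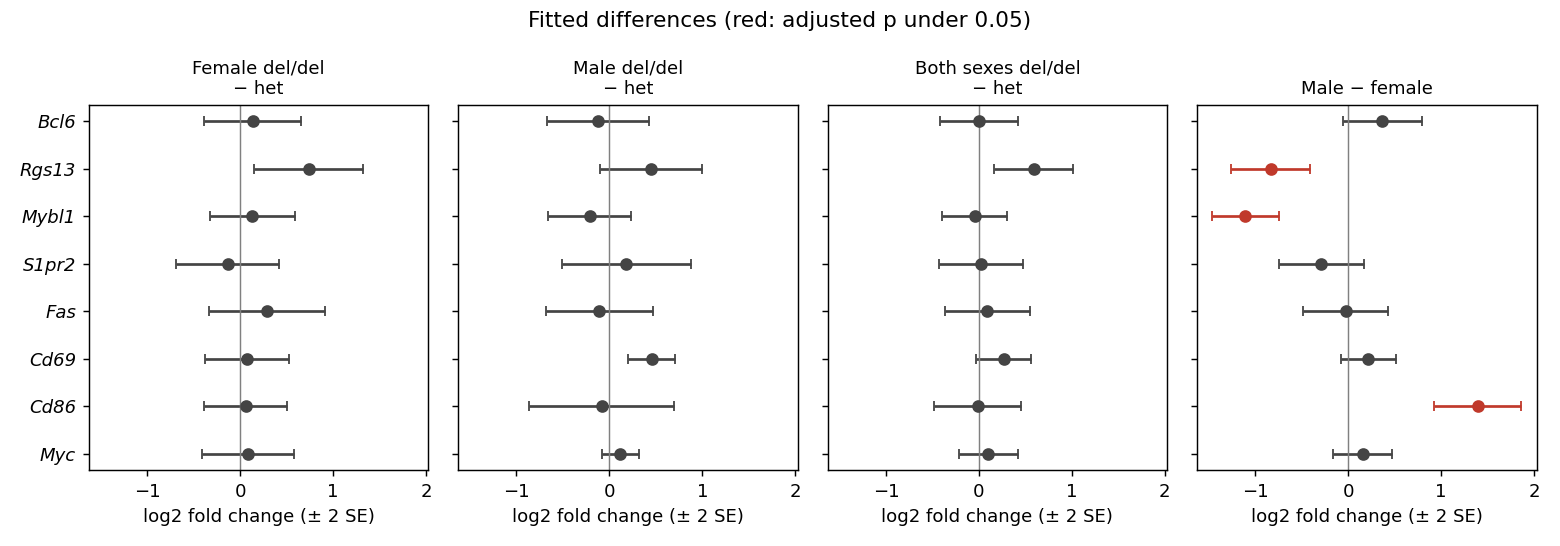
Fitted log2 fold change of each gene with bars of ± 2 SE in 4 comparisons: del/del minus heterozygous in females, in males and in both sexes, and male minus female. Red marks an adjusted p under 0.05, which is reached by Rgs13, Mybl1 and Cd86 between the sexes.

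Between genotypes, 0 of the 8 genes passed an adjusted p of 0.05 in females, where 0.252% of 13501 genes did, 0 in males, where 0.119% of 13413 did, and 0 over both sexes, where 0.514% of 14017 did. At an unadjusted p under 0.05, edgeR gave Rgs13 in females, Cd69 in males and Rgs13 over both sexes, so 1 of 8 each time, beside 4.3%, 3.34% and 6% of all genes. DESeq2 and limma-voom also called 0 of the 8. For the interaction of sex and genotype 0% of genes passed in edgeR (1.45% at an unadjusted p under 0.05), and none of the 8 had an unadjusted p under 0.05. DESeq2 called 4 genes there, none of them a member. In females 7 of the 8 log2 differences were above 0, beside 48.8% of all genes, with a median of 0.11 beside -0.00439 for all genes. In males 4 of 8 were above 0, beside 50.6% of all genes, with a median of 0.02 beside 0.0013 for all genes. Over both sexes 6 of 8 were above 0, beside 49.5% of all genes, with a median of 0.06 beside -0.00119. For no member did the heterozygous and del/del ranges stand apart, which happened for 1.11% of genes in females and 1.92% in males. Over both sexes the interval of ± 2 SE ran from -0.39 to 0.31 for Mybl1, from -0.43 to 0.47 for S1pr2, from -0.37 to 0.55 for Fas and from -0.48 to 0.46 for Cd86. Rgs13, at 0.59 and thus beyond all of these bounds, was not called either, so changes of that size could be missed at this depth and number of animals.

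Between the sexes, with genotype in the fit, 3 of the 8 genes passed the threshold, beside 41.9% of 14017 genes. Cd86 was 2.63-fold higher in males (log2 1.39, SE 0.23; edgeR adjusted p = 0.000147). Its mean was 11.3 ± 1.25 CPM in heterozygous females (n = 5) and 31.4 ± 16.5 CPM in heterozygous males (n = 4), and these ranges did not overlap. Rgs13 was lower in males by 0.84 on the log2 scale (SE 0.21; edgeR adjusted p = 0.00437), with 1.77 ± 0.59 CPM in del/del males and 3.5 ± 0.63 CPM in del/del females. Ranges of heterozygous females and males stood apart for 1 of the 8 genes (Cd86), beside 23.5% of all genes, and ranges of del/del females and males for 2 (Rgs13 and Mybl1), beside 16.1%. Bcl6 (log2 0.37, SE 0.21), Cd69 (0.21, SE 0.15), Myc (0.16, SE 0.16), S1pr2 (-0.29, SE 0.23) and Fas (-0.03, SE 0.23) did not pass. The sexes were deposited in separate tables, and the sources used here do not say whether they were prepared together, so sex and preparation cannot be told apart.

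Lists of developmental stages moved between the sexes alongside these genes. Of all 14017 genes tested, 2901 were called higher and 2967 lower in males. All 20 genes of a proliferation list were called lower in males, among them the mitotic motor Kif11 (log2 -0.80, SE 0.13) and the mitotic kinase Aurkb (-0.63, SE 0.10). Their summed level was 3270 to 6400 CPM in females and 2570 to 3850 CPM in males. Of 15 mature B cell genes, 14 were called higher in males, such as the MHC class II gene H2-Ab1 (1.14, SE 0.15), with summed levels of 6950 to 14000 CPM in females and 15300 to 20000 CPM in males. Of 13 pro-B and pre-B genes, 9 were called lower, among them the recombination gene Rag1 (-0.69, SE 0.14). With the proliferation list as a covariate, Mybl1 still passed (log2 -0.92, SE 0.28, edgeR adjusted p = 0.043). Cd86 (1.09, SE 0.38, adjusted p = 0.074) and Rgs13 (-0.82, SE 0.34, adjusted p = 0.133) did not. Without the covariate the SE was 0.18 for Mybl1, 0.23 for Cd86 and 0.21 for Rgs13, and the Rgs13 value was -0.84. With the plasmacytoid dendritic cell list as a covariate, Rgs13 was at -0.70 (SE 0.335, edgeR adjusted p = 0.113), Cd86 at 1.38 (0.0194) and Mybl1 at -1.28 (0.00139). Of the 15 genes of that list, 11 were called lower in males (median -1.03). Both lists differed between the sexes, so these fits cannot separate list from sex, and no conclusion is drawn from which genes passed.

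The known partners of each gene were described next. Of all genes tested, 49.5% were above 0 over both sexes, 48.8% in females and 50.6% in males. None of 17 tested germinal centre genes was called between genotypes over both sexes, with 9 of 17 above 0 and a median log2 difference of 0.02. The germinal centre factor Mef2b had the smallest p of that list among genes above 0 (0.63, SE 0.27; edgeR adjusted p = 0.739), at 1.74 ± 0.671 CPM (heterozygous females) and 2.28 ± 0.655 CPM (del/del females). Between the sexes 6 of these 17 genes were called higher and 9 lower in males, with Lmo2, a partner of transcription factors, higher by 1.12 (SE 0.19; adjusted p = 0.000177).

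For BCL6 itself, 10 corepressor genes had a median of -0.03 over both sexes and 0 calls, with Hdac3, its histone deacetylase, at -0.07 (SE 0.05). Of 14 genes that BCL6 is known to repress, 9 were above 0, with a median of 0.05 and 0 calls. Among them Cd80, a costimulatory ligand like CD86, was at 0.99 (SE 0.35; edgeR adjusted p = 0.538). Heterozygous females held 1.03 ± 0.683 CPM and del/del females 2.75 ± 1.31 CPM, and the male groups held 1.35 ± 0.27 CPM and 2.03 ± 0.856 CPM.

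Around S1pr2 and Rgs13, 19 confinement receptors and G protein regulators had a median of 0.04, 13 above 0 and 0 calls. Rgs16, a relative of Rgs13, was at -0.34 (SE 0.22) between genotypes and at -1.45 (SE 0.22; edgeR adjusted p = 6.66e-05) in males against females. Of 13 genes of the Fas death pathway, 5 were above 0, with a median of -0.02 and 0 calls. The ligand Fasl, made by T and NK cells, was at -0.59 (SE 0.23; edgeR adjusted p = 0.683), and the 12 genes of a T and NK cell list had a median of -0.24 with 0 calls and summed levels of 97.8 to 229 CPM over the 4 groups.

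Around Cd69, 23 early activation genes had a median of 0.28 over both sexes, with 20 of 23 above 0 and 0 calls. By sex, 22 of 23 were above 0 in females (median 0.18) and 19 of 23 in males (median 0.26). The immediate early gene Fosb was at 1.10 (SE 0.57; edgeR adjusted p = 0.88), with means of 5.1 ± 6.26 CPM (heterozygous) and 9.27 ± 6.79 CPM (del/del) in females and of 9.73 ± 10.4 CPM and 24.3 ± 17.2 CPM in males. Its SD was as large as its mean in the heterozygous groups. The early activation list summed to 1890 to 2960 CPM (heterozygous) and 2020 to 3280 CPM (del/del) in females, and to 2190 to 2820 CPM and 2380 to 3820 CPM in males, so the ranges overlapped. Around Cd86, 12 tested costimulation and adhesion genes had a median of 0.11, 10 above 0 and 0 calls, and the interleukin 2 receptor chain Il2ra was at -0.30 (SE 0.13; edgeR adjusted p = 0.742).

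Around Myc, 11 genes of a network list had a median of -0.04 and 20 target genes a median of -0.07. Of these, 3 of 11 and 3 of 20 were above 0, with 0 calls in each. The network list was not limited to dimer partners of MYC, since it also held Mybl2, a relative of Mybl1. By sex, 1 of the 20 target genes was above 0 in females (median -0.13) and 11 of 20 in males (median 0.01). Ncl, which encodes the nucleolar protein nucleolin, was at -0.13 (SE 0.11). The MYC antagonist Mxi1 was at -0.17 (SE 0.07; edgeR adjusted p = 0.741). At an unadjusted p under 0.05 over both sexes, these partner lists held 2 higher germinal centre genes and 1 higher BCL6-repressed gene. They also held 1 lower Fas pathway gene, 1 higher early activation gene and 1 higher and 1 lower costimulation gene. The MYC network list held 1 lower gene, and the other partner lists held 0. Lists can share a gene, so these counts need not be of separate genes.

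Cell type lists were set beside these values. Of the 20 lists, the plasmacytoid dendritic cell list alone had a gene called between genotypes over both sexes: Il3ra, a cytokine receptor chain, at 0.55 (SE 0.09; edgeR adjusted p = 0.00186). All 15 of its genes were above 0, with a median of 0.44. The 20 proliferation genes were all below 0 (median -0.17, 0 calls), as were the 13 pro-B and pre-B genes (median -0.24, 0 calls), and 14 of 15 mature B cell genes were above 0 (median 0.10, 0 calls). The 9 erythroid genes were below 0 (median -0.84) and 10 of 12 myeloid genes above 0 (median 0.22), with 0 calls in each. With the plasmacytoid dendritic cell list as a covariate the female Rgs13 difference was 0.67 (SE 0.32, edgeR unadjusted p = 0.0541), beside 0.74 (SE 0.29) without it. In females too, all 15 genes of that list were above 0 (median 0.42). This fit therefore cannot separate list from genotype, and no conclusion on Rgs13 is drawn from it. At an unadjusted p under 0.05 over both sexes there were 6 higher plasmacytoid and 1 higher conventional dendritic cell genes. Lower ones were 4 pro-B and pre-B genes, 5 T and NK cell genes and 9 erythroid genes. There were 0 proliferation, mature B cell, myeloid or B identity genes. The 8 B identity genes had a median of -0.02. No conventional dendritic cell gene was called; 7 of 9 were tested, with a median of 0.39 and summed levels of 33.4 to 109 CPM.

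**Figure D4:**
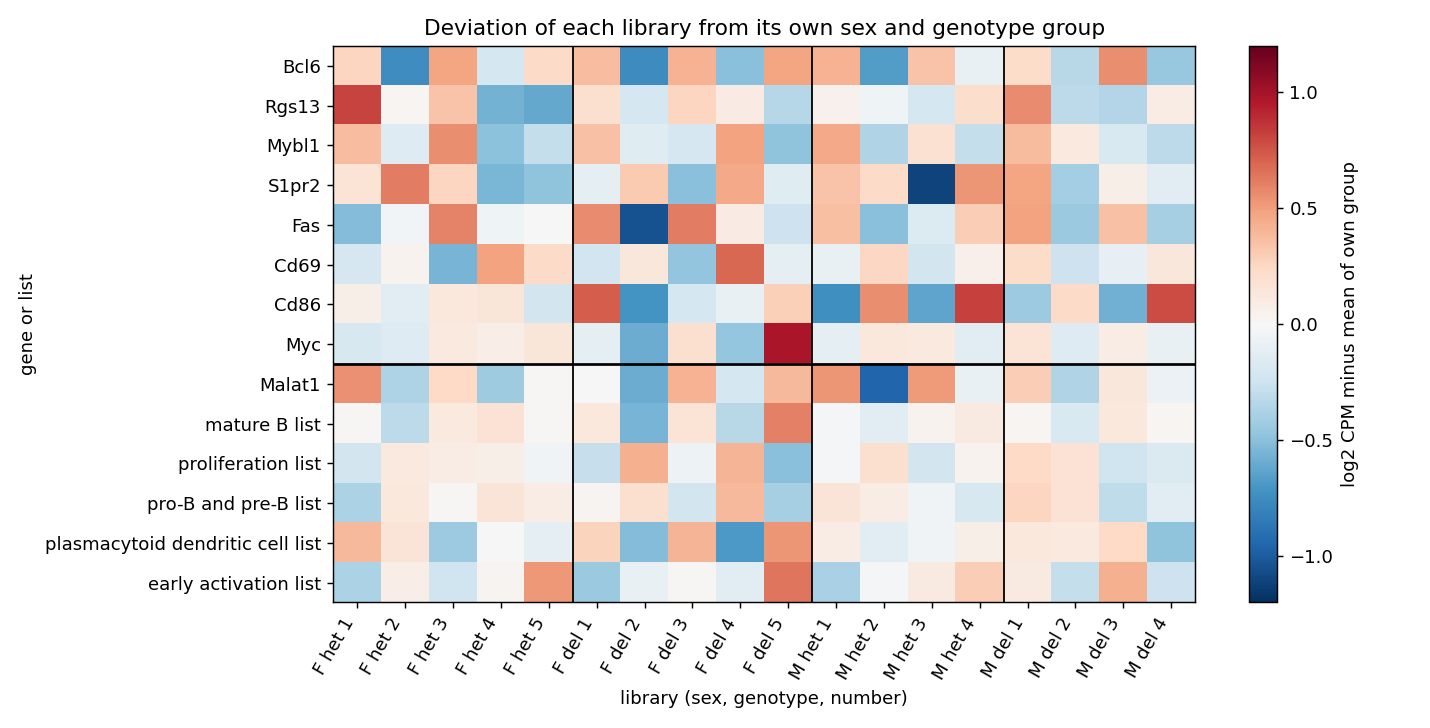
Deviation of each library (columns, grouped by sex and genotype) from the mean log2 CPM of its own group, for the 8 genes (above the line) and for Malat1 and 5 lists (below it). Red is above and blue below the group mean. Bcl6 and Malat1 share high and low libraries (r = 0.84), and Cd86 is high in libraries 2 and 4 of both male groups.

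Inside the groups, the 8 genes did not vary as a block. After each group's mean log2 CPM was removed, the SD over libraries ranged from 0.35 for Cd69 to 0.56 for Cd86. The correlations that follow are over 18 libraries, describe shared variation and carry no test; deviations share depth and scaling within a library. Bcl6 moved with Fas (Pearson's r = 0.62, Spearman's rho = 0.56, and r = 0.56 without the 2 libraries of most extreme Bcl6) and with Myc (0.55, 0.55 and 0.43), the latter at r = 0.68 in females and 0.24 in males. It moved against Cd69 (r = -0.58, rho = -0.61 and r = -0.64 without those libraries). Rgs13 moved with Mybl1 (0.59, 0.55 and 0.54), at r = 0.76 in females and 0.22 in males, and with S1pr2 (0.48, 0.46 and 0.46). Bcl6 and Cd86 moved together in the 10 female libraries (r = 0.58) and oppositely in the 8 male libraries (r = -0.86).

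Bcl6 deviations moved with those of the nuclear long noncoding RNA Malat1 (r = 0.84, rho = 0.77, and r = 0.79 without the 2 libraries of most extreme Malat1), at 0.85 in females and 0.86 in males. Among the lists they moved most with costimulation and adhesion (r = 0.80), mature B cell (r = 0.74), confinement and G protein (r = 0.645) and BCL6-repressed genes (r = 0.59). They moved most against the MYC target list (r = -0.77), the proliferation list (r = -0.66) and the BCL6 corepressor list (r = -0.58). Malat1 stood at 1520, 807, 1230, 773 and 1050 CPM (heterozygous) and 1420, 942, 1900, 1230 and 1860 CPM (del/del) in females, and at 1060, 379, 1040 and 686 CPM and 1000, 638, 896 and 779 CPM in males. Its high and low libraries were mostly those of Bcl6. With Malat1 as a covariate the Bcl6 difference between genotypes was -0.39 (SE 0.18; edgeR adjusted p = 1) in females and -0.28 (SE 0.13; adjusted p = 1) over both sexes, and that between males and females was 0.98 (SE 0.16; adjusted p = 8.91e-05). Without the covariate, these Bcl6 values were 0.14, 0.00 and 0.37 in the same order (edgeR adjusted p = 0.168 for the last). Malat1 itself was called lower in males (log2 -0.638, SE 0.195; edgeR adjusted p = 0.0134). Between genotypes in females it stood at 0.447 (SE 0.215; edgeR adjusted p = 0.975). The fits with Malat1 cannot separate it from the groups compared, so no conclusion on Bcl6 is drawn from them. The part of the mature B cell genes or of the other lists in the Bcl6 level was not tested.

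Myc followed the mature B cell list in females (r = 0.92) but less so in males (r = 0.19), and over all libraries r was 0.86 (rho = 0.65), or 0.63 without the 2 libraries of most extreme list level. Fas followed the list of BCL6-repressed genes (r = 0.77, rho = 0.65, and r = 0.59 without the 2 most extreme libraries). Cd69 followed the MYC targets (r = 0.69, rho = 0.69 and r = 0.64).

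Among 10426 other genes (mean log2 CPM 1 or more), those most like Bcl6 in these deviations were Stap1 (r = 0.96), which encodes an adaptor protein of B cells, Arhgap4 (0.95) and Slamf1 (0.94), a receptor of activated lymphocytes. Slamf1 stood at 9.30, 4.48, 12.5, 4.13 and 10.2 CPM in heterozygous females, with libraries 2 and 4 low as for Bcl6. For Cd86 they were Dapp1 (0.93), an adaptor in B cell receptor signalling, the glucocorticoid receptor Nr3c1 (0.92) and Tgoln1 (0.89). Dapp1 stood at 88.7, 109, 88.9 and 117 CPM in heterozygous males and at 94.0, 114, 98.7 and 124 CPM in the del/del ones, so that its libraries 2 and 4 were high in both groups, as for Cd86. For Mybl1 they were Ahcyl1 (0.93), Srsf1 (0.91), a splicing factor, and Slamf6 (0.90), and for Rgs13 Chm (0.89), Zdhhc21 (0.89) and Zfp128 (0.88).

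The likeness was less even between the sexes for Cd69 and Myc, and it was lower for Fas and S1pr2. For Cd69 the closest were Ptp4a1 (r = 0.88), the chemokine receptor gene Cxcr4 (0.88) and Cox16 (0.85), but Cxcr4 reached 0.95 in females and 0.36 in males. For Myc they were Rara (0.91), which encodes a retinoic acid receptor, Zbtb7b (0.91) and Lpcat1 (0.89), with Zbtb7b at 0.97 in females and -0.11 in males. For Fas they were Fam111a (0.79), Gimap4 (0.78) and Glipr1 (0.77), and for S1pr2 AC114588.1 (0.78), Cyb5r4 (0.76) and Vwa5a (0.75).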

How the data were processed

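Per the labels' protocols, polyA RNA of sorted marrow B cells was made into TruSeq libraries. What the authors deposited were raw read counts, in a table for each sex, and log2 fold changes with p-values and adjusted p-values per gene, in tables of their own. The tools named in the submitters' processing notes are TopHat, Trim Galore, bcl2fastq, FastQC and edgeR 3.32.1, with the builds mm10 and GRCm38. Which program counted the reads, on which annotation and with which strand setting is not given in the sources used here, and a gene and its antisense partner could not be told apart. Of 25965 rows, 56 had no identifier (at most 0.0846% of a library's counts), and 24990 identifiers were found in GENCODE M21. There were 4 columns of group means, which were not used.

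Counts were tested in R 4.3.3 with edgeR 4.0.16: filterByExpr (minimum count 10, minimum total count 15), TMM scaling, the quasi-likelihood test and Benjamini-Hochberg adjustment over all genes tested, with a call at an adjusted p under 0.05. Del/del was set against heterozygous in each sex, and the 18 libraries were fitted together with sex and genotype for both sexes, for their interaction and for males against females. Positive log2 fold changes mean higher in del/del, or in males. CPM used TMM factors over all 18 libraries, and log2 CPM a prior count of 2. The test was also run on simulated counts, and its outcome there is not reported here. Libraries are numbered in accession order within a group, which is also the order of their animal numbers. Heterozygous and del/del libraries of equal number in a sex thus have equal rank by animal number. These are not always the nearest numbers, and the labels do not state them as pairs. p-values measure the spread between animals as numbered in the labels. Counting errors cover counting only.

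All 8 genes passed the low-count filter in every comparison. The members and the 20 lists were chosen with earlier results of these data known. Some lists share genes, such as Cd80 (BCL6-repressed and age-associated lists) and Cxcr5 (germinal centre and mature B cell lists). Their counts are therefore not independent. Named genes besides the members are the 3 tested genes of smallest p in each list over both sexes and the 3 genes most like each member in its deviations. Alternatives were DESeq2 1.42.0 and its size factors, limma-voom (limma 3.58.1), no filter, covariates (plasmacytoid dendritic cell list, proliferation list, Malat1), a block, 1 fit of all libraries, and leaving out each library.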

Additional observations from a re-analysis of the deposited data

How the results depend on the processing

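The number of the 8 genes called between genotypes stayed at 0 under every alternative run, in females, in males, over both sexes and for the interaction. Between the sexes it was 3, fell to 1 (Mybl1) with the proliferation list as a covariate, and was 3 to 4 when each library was left out. With the plasmacytoid dendritic cell list as a covariate it was 4, with Bcl6 and Myc (log2 0.69, adjusted p = 0.0235) added and Rgs13 lost, and with Malat1 it was 3, with Bcl6 in place of Rgs13. These covariates themselves differed between the sexes, so the fits cannot separate them from sex, and the cause was not tested. Rgs13 over both sexes kept its sign in all 26 alternatives (log2 0.47 to 0.73, unadjusted p under 0.05 in 26), and its smallest adjusted p was 0.162, without heterozygous female library 1. Within a sex it was less stable. The unadjusted p for Rgs13 was under 0.05 in 13 of 19 alternatives in females and in 0 of 17 in males. In females it reached 0.0996 in edgeR with Malat1 as a covariate (log2 0.52, SE 0.29). Male Cd69 was at 0.38 to 0.57 in 17 alternatives, with a smallest adjusted p of 0.24 (DESeq2). Its unadjusted p was under 0.05 in 16 of them. In 1 edgeR fit of all 18 libraries male Cd69 was at 0.45 with a larger SE of 0.22 and an unadjusted p of 0.0584. Without del/del female library 5, Myc passed between the sexes (log2 0.32, adjusted p = 0.0126). Counts over all genes moved more: DESeq2 called 92 genes in females, 49 in males, 129 over both sexes and 4 for the interaction, beside 34, 16, 72 and 0 in edgeR, and with the proliferation list as a covariate 1415 genes differed between the sexes, beside 5868. In males 5 genes were called without heterozygous library 1 or del/del library 3, 6 without del/del library 1, 9 without heterozygous library 4 and 10 without del/del library 4. The labels state no pairs. A replicate block joined the heterozygous and del/del animals of equal rank by animal number within a sex. With it, 23 genes were called in females, 13 in males and 73 over both sexes, and none was a member. Rgs13 over both sexes was then at 0.61 (SE 0.18, edgeR adjusted p = 0.252). Deviations of animals joined in this way correlated by -0.0714 to 0.468 in females and by 0.1 to 0.363 in males. Low counts limit Rgs13, S1pr2 and Fas.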

Other observations

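Animals of equal rank by number in the labels, 1 heterozygous and 1 del/del, carry the same library number here. They had like values of some members and not of others. This grouping was made from the animal numbers and is not stated as a pairing. For male Cd86 the median absolute log2 difference was 0.17 over the 4 such pairs and 0.999 over the 12 combinations of libraries inside a group. For Bcl6 it was 0.17 over 5 pairs and 0.61 over 20 combinations in females, and 0.27 and 0.57 in males. For female Cd69 it was 0.17 and 0.44. The difference was larger in pairs than inside groups for female Rgs13 (0.73 and 0.47), male Cd69 (0.55 and 0.26), female Cd86 (0.50 and 0.35) and female Myc (0.46 and 0.31). With these pairs as a block, the SE of the Bcl6 difference between genotypes was 0.09 in females and 0.12 in males, and that of the male Cd86 difference was 0.10, with log2 differences of 0.12, -0.13 and -0.03. Whether such animals shared a litter, a cage or a day of preparation was not tested.

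The age-associated B cell list, a set of genes of B cells that accumulate in old mice, had 8 of 9 genes above 0 over both sexes (median log2 0.27) and 0 calls. In females all 9 were above 0, with a median of 0.45, and in males 6 of 9, with a median of 0.14. All 9 interaction values were below 0 (median -0.38), with 0 calls, where 46.4% of all genes were above 0. Its gene Zbtb32, a repressor that limits memory B cell responses, was at 0.998 (SE 0.35; edgeR adjusted p = 0.551), with 3.91 ± 0.74 and 8.9 ± 5.31 CPM in the heterozygous and del/del females and 2.8 ± 1.16 and 4.8 ± 3.02 CPM in the males. The Fc receptor-like gene Fcrl5 was at 0.77 (SE 0.28) in females and 0.35 (SE 0.49) in males, and was called in neither. The 6 tested plasma cell genes had a median of 0.02 between genotypes and 0 calls. All 6 were called lower in males, among them Sdc1, a surface marker of plasma cells, at -0.996 (SE 0.09, edgeR adjusted p = 2.64e-07). Of 13 pro-B and pre-B genes, 9 were called lower in males too, and which cells carried Sdc1 was not tested.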
